A study of Mus musculus with 12 samples.

Results

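Genes of the interferon response and of innate immunity were followed in the promoter contacts of mouse haematopoietic stem cells (HSCs). They were taken by gene symbol, as captured genes whose symbol begins with a family name such as Ifi, Ifn, Irf, Irgm, Gbp, Oas, Isg, Stat, Parp, Tlr, Nlr, Tap, Nfkb, Rsad2 or Xaf1. The rule reads no measured value, although the group was picked for description with earlier results of these data known. The rule took 63 of 3781 promoter entries, which belong to 55 of 3374 genes. A promoter entry is a captured promoter fragment in a batch, and a gene can have several. The source holds only promoters with at least 1 contact that passed the authors' score threshold. Captured, here and below, means a promoter so listed. A promoter captured without such a contact cannot be seen. The first batch held 30 of these entries (22 genes) and the second batch 33 (33 genes), with 8 genes captured at more than 1 promoter. No gene was in both batches, so neither batch repeats the other. Neither interferon genes themselves nor Nfkb1, Nfkb2, Rel, Mx, Bst2, Samhd1 or Rtp4 were among the captured genes analysed here.

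Promoter Capture-C ligates the ends of cross-linked, digested chromatin and enriches the products of selected promoters, so that reads report which distal fragments lay near a promoter. Fetal HSCs came from the liver at embryonic day 14.5 and adult HSCs from the bone marrow of mice aged 6 to 8 weeks, both of the strain B6129SF1, untreated as far as the labels say, and both sorted as Lin-Sca1+cKit+CD135- cells. That gate also takes multipotent progenitors. Each population had 4 libraries, 2 in each of 2 batches, and the 4 libraries of the HPC7 line were not analysed here. Each contact and promoter has 1 pooled value per population, from the batch that captured it. There is thus no replicate error, and no test between the populations was possible. Every difference below is a difference between 2 pooled values. Exact Clopper-Pearson 95% intervals beside shares cover counting error only, and calls in adjacent bins are not independent.

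Type I and type II interferons bind paired receptor chains, which activate Janus kinases and through them the STAT transcription factors. A complex of STAT factors with IRF9 binds the interferon-stimulated response element (ISRE), and STAT dimers bind the gamma-activated sequence (GAS). The genes so induced include antiviral effectors, large GTPases that attack intracellular pathogens, and the machinery that loads peptides on MHC class I. In HSCs, a number of these genes are transcribed without infection, and interferon is known to push quiescent adult HSCs into cycle.

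RefSeq promoters (build GRCm38.p6) were found by symbol for 41 of the 55 genes, which gave 54 promoter windows of the 250 bases before a transcription start. Both strands were searched for the ISRE core (GAAA, any 2 bases, GAAA) and the GAS core (TTCNNNGAA). The ISRE core occurred in 14 of the 54 windows (25.9%), against 2.98% of the 32851 RefSeq promoters of all genes and 2.72% of the 3238 promoters of the other captured genes. The GAS core occurred in 9 windows (16.7%), against 7.02% of all RefSeq promoters. Of the 41 genes, 18 held either core (43.9%), against 11.1% of all RefSeq genes and 10.6% of the other captured genes. The motifs overlapped in the window of Parp11, a mono-ADP-ribosyltransferase, and such a match describes letters, not a bound site. The Capture-C coordinates are those of mm9, so the windows serve as sequence only, and which RefSeq start each captured fragment holds was not determined.

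The following windows belong to genes whose contacts or expression are described below, read 5′ to 3′ on the strand of the gene and ending at the base before the start, with each core in capitals. Irgm1 and Irgm2 encode immunity-related GTPases, and Gbp7 a guanylate-binding protein. Rsad2 encodes viperin, an enzyme that makes a chain-terminating nucleotide. Stat4 encodes the STAT factor best known downstream of interleukin-12.
Irgm1: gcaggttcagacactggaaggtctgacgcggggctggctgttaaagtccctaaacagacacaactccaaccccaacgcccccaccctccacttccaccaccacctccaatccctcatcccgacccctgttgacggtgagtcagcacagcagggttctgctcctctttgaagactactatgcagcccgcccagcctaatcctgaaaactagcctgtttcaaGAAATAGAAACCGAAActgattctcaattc
Irgm2: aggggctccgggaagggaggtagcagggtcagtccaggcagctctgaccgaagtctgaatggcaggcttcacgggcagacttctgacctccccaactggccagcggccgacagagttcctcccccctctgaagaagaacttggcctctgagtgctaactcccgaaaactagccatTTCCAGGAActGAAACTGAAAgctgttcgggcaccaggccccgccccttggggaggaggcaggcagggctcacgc
Gbp7: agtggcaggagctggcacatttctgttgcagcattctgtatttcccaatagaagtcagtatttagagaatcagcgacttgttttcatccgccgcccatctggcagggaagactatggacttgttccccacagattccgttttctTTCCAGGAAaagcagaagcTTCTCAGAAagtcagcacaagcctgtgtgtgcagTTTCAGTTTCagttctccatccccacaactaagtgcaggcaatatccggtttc
Rsad2: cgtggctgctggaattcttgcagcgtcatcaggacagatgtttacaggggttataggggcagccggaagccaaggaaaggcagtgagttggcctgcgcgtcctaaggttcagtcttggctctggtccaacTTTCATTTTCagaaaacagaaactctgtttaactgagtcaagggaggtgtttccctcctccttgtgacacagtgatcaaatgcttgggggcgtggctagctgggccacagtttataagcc
Stat4: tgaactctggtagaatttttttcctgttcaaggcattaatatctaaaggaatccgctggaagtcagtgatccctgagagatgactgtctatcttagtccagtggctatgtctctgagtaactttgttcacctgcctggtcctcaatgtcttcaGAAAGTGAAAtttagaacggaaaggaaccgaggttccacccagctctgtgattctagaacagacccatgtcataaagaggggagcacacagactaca
In the GRCm38.p6 assembly these windows lie at chr11:48871421-48871670 on the minus strand (Irgm1), chr11:58214727-58214976 on the plus strand (Irgm2), chr3:142530086-142530335 on the plus strand (Gbp7), chr12:26456453-26456702 on the minus strand (Rsad2) and chr1:52007990-52008239 on the plus strand (Stat4). Irgm1 carried 2 overlapping ISRE cores that start 30 and 24 bases before the transcription start. Irgm2 carried a GAS core 75 bases and an ISRE core 64 bases before the start. Gbp7 carried 2 GAS cores and an ISRE core.

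The window of Nfkbia, at chr12:55492648-55492897 on the minus strand of the same assembly, is shown for contrast, since it held neither core although its promoter had the most calls of the group. Nfkbia encodes IκBα, the inhibitor that keeps NF-κB in the cytoplasm and is itself induced by NF-κB.
Nfkbia: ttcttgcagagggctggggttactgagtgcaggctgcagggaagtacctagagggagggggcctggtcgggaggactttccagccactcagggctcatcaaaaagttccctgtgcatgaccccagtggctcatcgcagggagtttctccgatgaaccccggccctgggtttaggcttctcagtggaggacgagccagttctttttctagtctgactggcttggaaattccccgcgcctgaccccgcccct

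Expression is given as the authors' FPKM (fragment counts scaled to transcript length and library size), 1 value per promoter entry and population, so levels can be compared between genes. Adult FPKM was higher than fetal FPKM at 55 of the 63 entries (87.3%, interval 76.5 to 94.4). In the first batch this was so for 26 of 30 entries and in the second for 29 of 33, against 51.3% and 54.1% of all captured promoters of those batches. Taken by gene, 48 of 55 were higher in adult cells at every promoter, 6 were higher in fetal cells at every promoter, and the promoters of Oas2 disagreed. The difference in log2(FPKM + 1), fetal minus adult, had a median of -0.69 in the first batch and -0.84 in the second, where all captured promoters had -0.04 and -0.54. The added 1 makes these differences smaller for weakly expressed genes.

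A difference of at least 1 on that scale towards adult cells was seen at 23 entries, 11 in the first batch and 12 in the second, where the share over all captured promoters was 13.3% and 16.1%. The same difference towards fetal cells was seen at 1 entry, Irf8, against 5.07% and 11.4% of all captured promoters. The authors' deposited table marks every second-batch promoter, member or not, as a gene that differs in expression. Of the 30 first-batch entries, 18 carry that mark, against 35.5% of all, and adult FPKM was higher at each of the 18. Over both batches adult FPKM was higher at 47 of 51 marked entries (92.2%), where 54.5% of all marked promoters were.

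**Figure D1:**
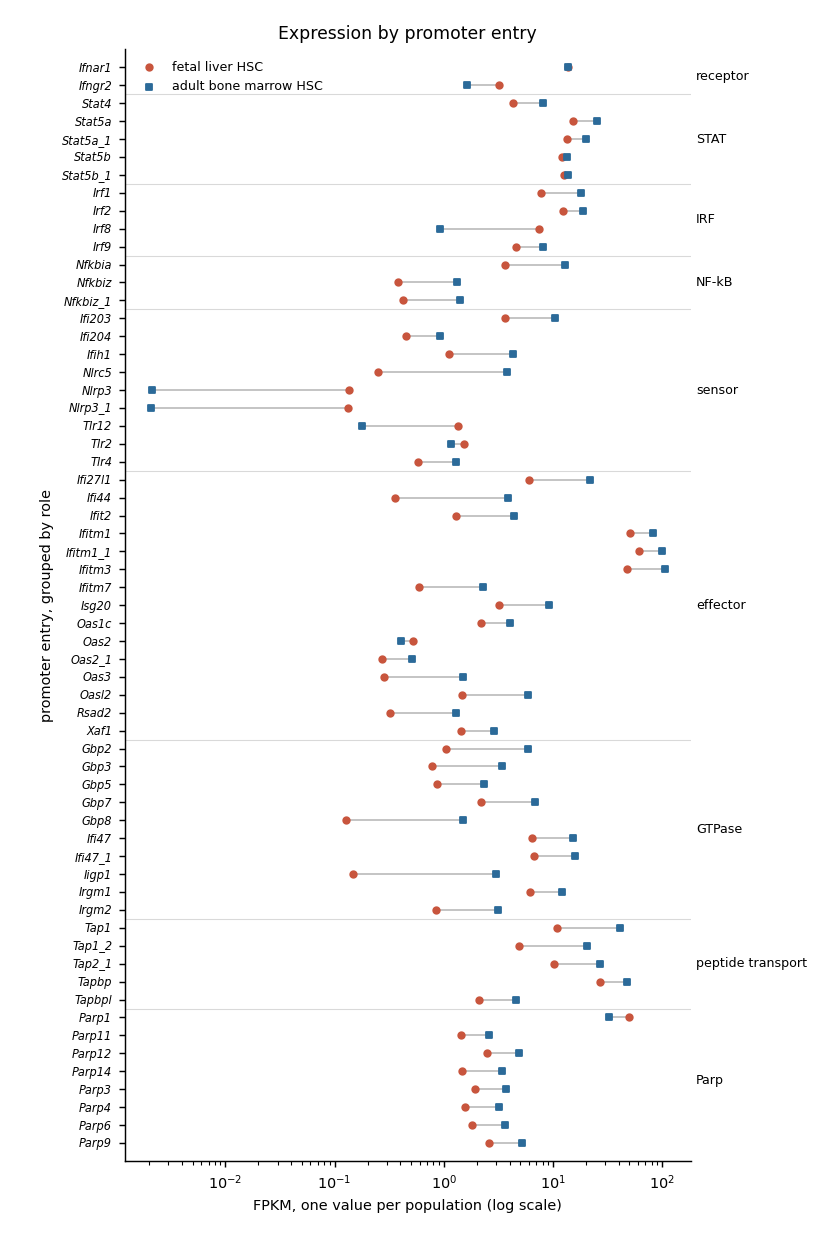
FPKM of 61 promoter entries on a log axis, with 1 fetal (circle) and 1 adult (square) value per entry and no error bars because the values are not replicated. The squares lie to the right of the circles at 53 of the 61, and Irf8, Tlr12, Nlrp3, Ifngr2, Parp1, Tlr2 and the first Oas2 entry lie the other way.

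Among the receptors, Ifnar1, a chain of the type I interferon receptor, had a fetal FPKM of 13.6 and an adult FPKM of 13.7. Ifngr2, the signalling chain of the interferon-gamma receptor, had 3.16 fetal and 1.63 adult FPKM, 1.94 times as high in the fetal population. The receptor level was thus nearly equal for one chain and higher in fetal cells for the other.

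The STAT genes were all higher in adult cells, by less than a log2(FPKM + 1) difference of 1. Stat4 had 4.25 FPKM in fetal HSCs and 8.10 FPKM in adult HSCs. Stat5a and Stat5b, which act downstream of thrombopoietin and other haematopoietic cytokines, were at higher levels, and they differed less. The first promoter entry of Stat5a had 15.2 and 25.4 FPKM in fetal and adult cells, and that of Stat5b had 12.1 and 13.3.

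Of the 5 interferon regulatory factors, 4 were higher in adult cells. Irf1, a transcriptional activator induced by interferon-gamma, had a fetal FPKM of 7.81 and an adult FPKM of 18.1, 2.31 times as high in the adult. Irf2, which competes with IRF1 for the same elements, had 12.4 and 18.9 FPKM in fetal and adult cells. Irf9, the DNA-binding partner of STAT factors, had 4.53 fetal and 8.08 adult FPKM.

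Irf8, which directs the development of monocytes and dendritic cells, went the other way, with 7.48 FPKM in fetal HSCs and 0.925 FPKM in adult HSCs, 8.09 times as high in the fetal. Markers listed for macrophages, neutrophils and erythroid cells were also higher in fetal cells. The 5 captured macrophage markers of 7 listed were each higher in fetal cells, summing to 22.9 FPKM in fetal HSCs and 2.05 FPKM in adult HSCs, and none was listed at 0. Both captured neutrophil markers, of 3 listed, summed to 57.3 and 3.42 FPKM, and the 5 erythroid markers to 52.1 and 9.78 FPKM. Single genes carried much of these sums, with 46.1 fetal and 2.04 adult FPKM at Mpo (neutrophil) and 24.0 and 2.40 at Klf1 (erythroid). Csf1r, a defining macrophage receptor, had 5.67 fetal and 0.0390 adult FPKM. The Lin- gate of the sort is meant to leave out mature blood cells of these types. In bulk values such as these, more cells of a type and more RNA per cell cannot be told apart. The part of these cell types in the fetal values of Irf8, Tlr12 and Nlrp3 was not tested. The 8 captured of 10 HSC and progenitor markers were expressed in both populations, at a summed 185 FPKM in fetal HSCs and 292 FPKM in adult HSCs. The 4 fetal-stage markers were all higher in fetal cells. The B cell, T cell and hepatocyte markers chosen had no contact in the source, so their expression could not be read.

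Nfkbia, the IκBα gene, had a fetal FPKM of 3.62 and an adult FPKM of 12.8, 3.55 times as high in the adult. Nfkbiz, which encodes a nuclear IκB protein that steers NF-κB target choice, was low at its first entry, with 0.379 fetal and 1.30 adult FPKM.

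The sensors split. Nlrc5, the transactivator of MHC class I genes, had 0.251 FPKM in fetal HSCs and 3.75 FPKM in adult HSCs, a difference of -1.93 in log2(FPKM + 1) and the largest towards adult cells among the 63 entries. Ifih1, the cytoplasmic double-stranded RNA sensor MDA5, had a fetal FPKM of 1.12 and an adult FPKM of 4.32. Ifi203, of the family with DNA-binding HIN domains, had 3.62 fetal and 10.4 adult FPKM. The toll-like receptor genes did not share a direction. Tlr12, a sensor of parasite profilin, had 1.35 FPKM in fetal HSCs and 0.176 FPKM in adult HSCs. Tlr2, a receptor for bacterial lipoproteins, had 1.53 and 1.15 FPKM, and Tlr4, the endotoxin receptor, 0.576 and 1.30 FPKM, each in fetal and adult cells. Nlrp3, the core of an inflammasome, was under 1 FPKM in both populations.

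The antiviral effectors were higher in adult cells at 14 of 15 entries, and 7 of these differed by at least 1. The membrane proteins Ifitm1 and Ifitm3, which block viral entry, were the most strongly expressed genes of the whole group in adult cells. Ifitm3 had a fetal FPKM of 47.8 and an adult FPKM of 105. Ifi44 had 0.353 fetal and 3.87 adult FPKM, 11.0 times as high in the adult. Isg20, an exonuclease of RNA, had 3.22 and 9.07 FPKM, and Ifit2, which inhibits translation, 1.29 and 4.38 FPKM, each in fetal and adult cells. Rsad2 had 0.322 FPKM in fetal HSCs and 1.30 FPKM in adult HSCs. The exception was Oas2, a sensor that makes oligoadenylates, with 0.521 and 0.409 FPKM at its first entry.

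The GTPases were higher in adult cells at each of 10 entries, and 8 differed by at least 1. Iigp1, of the class that disrupts the vacuoles of parasites, had a fetal FPKM of 0.146 and an adult FPKM of 2.99. Gbp2 and Gbp7, guanylate-binding proteins, had 1.03 and 2.17 FPKM in fetal cells and 5.91 and 6.88 FPKM in adult cells. Irgm1, which regulates the other members of its class, was highest in adult cells after Ifi47, with 6.10 FPKM in fetal HSCs and 12.1 FPKM in adult HSCs.

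All 5 entries of the peptide-transport genes were higher in adult cells. Tap1 and Tap2 form the pump that carries peptides to MHC class I. The first Tap1 entry had a fetal FPKM of 10.8 and an adult FPKM of 40.6, and the Tap2 entry 10.3 and 26.7 FPKM. Tapbp, tapasin, which holds the pump to class I, had 26.9 fetal and 47.3 adult FPKM. Of the Parp genes, which encode ADP-ribosyltransferases, 7 of 8 were higher in adult cells, none by as much as 1. Parp9 and Parp14, both induced by interferon, had 2.59 and 1.45 FPKM in fetal cells and 5.22 and 3.38 FPKM in adult cells. Parp1, which acts in DNA repair rather than in interferon signalling, was the exception, with 49.2 FPKM in fetal HSCs and 32.1 FPKM in adult HSCs.

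A list of 47 further pathway genes that the name rule does not take (kinases, adaptors, induced genes and regulators) held 22 captured genes with 23 entries. Adult FPKM was higher at 22 of the 23 entries, and at 10 by at least 1. None was higher by as much as 1 in fetal cells. Over both batches, adult FPKM was higher at 52.7% of all 3781 promoter entries. The difference was at least 1 at 553 of the 3781 towards adult cells and at 307 towards fetal cells. B2m, the light chain of MHC class I, had a fetal FPKM of 81.1 and an adult FPKM of 418. Psmb9, a subunit of the immunoproteasome, had 8.73 and 23.3 FPKM, and Sp100, a nuclear body protein, 3.09 and 14.4 FPKM, each in fetal and adult cells.

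The contacts were nearly balanced between the populations. A contact joins a promoter entry and a distal bin of 2 kb, and it was called in a population where the authors' score, which acts like a −log10 p-value, was above 0. First-batch calls started at a score of 1.3 and second-batch calls at 2. The 63 entries had 714 listed contacts in the first batch and 600 in the second. Of the 714, fetal cells had 466 calls and adult cells 415, with 299 in fetal cells alone, 248 in adult cells alone and 167 in both, where those 3 classes hold 38.9%, 35.4% and 25.7% of all first-batch contacts. Of the 600, fetal cells had 427 calls and adult cells 404, with 196 in fetal cells alone, 173 in adult cells alone and 231 in both, where the classes hold 33.8%, 29.1% and 37.1% of all second-batch contacts.

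Of the calls made in a single population, fetal calls were 54.7% (50.4 to 58.9, first batch) and 53.1% (47.9 to 58.3, second batch), against 52.3% and 53.8% over all captured promoters. More fetal than adult calls were found at 15 of 30 entries in the first batch and 16 of 33 in the second, against 48.1% and 50.1% of all captured promoters. More adult than fetal calls were found at 13 and 12 entries, against 42.1% and 38.1%. These shares lay near those of all captured promoters.

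The small fetal excess turned at a p-value 10 times smaller (scores of at least 2.3 and 3). Fetal calls then made up 46.6% (39.6 to 53.7) and 46.0% (39.2 to 53.0) of single-population calls, first and second batch, against 48.9% and 51.8% over all captured promoters. At that threshold the second batch had 7 entries with more fetal and 16 with more adult calls, where 42.9% and 41.7% of all captured promoters did so. In the first batch the entries were 12 and 17, against 39.3% and 47.7%.

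First-batch contacts called in both populations made up 35.8% (fetal) and 40.2% (adult) of calls, where all captured promoters had 39.8% and 42.1%. For the second batch these shares were 54.1% and 57.2%, where all had 52.3% and 56.0%. Adult contacts were shorter. Measured between the centres of promoter fragment and bin, the median distance of first-batch calls was 161 kb (fetal) and 129 kb (adult), and that of second-batch calls 99.97 kb and 70.5 kb. Among entries with at least 3 calls in each population, the fetal median was the longer at 19 of 27 (first batch) and 18 of 22 (second batch), close to the 66.6% and 82.8% of all captured promoters.

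**Figure D2:**
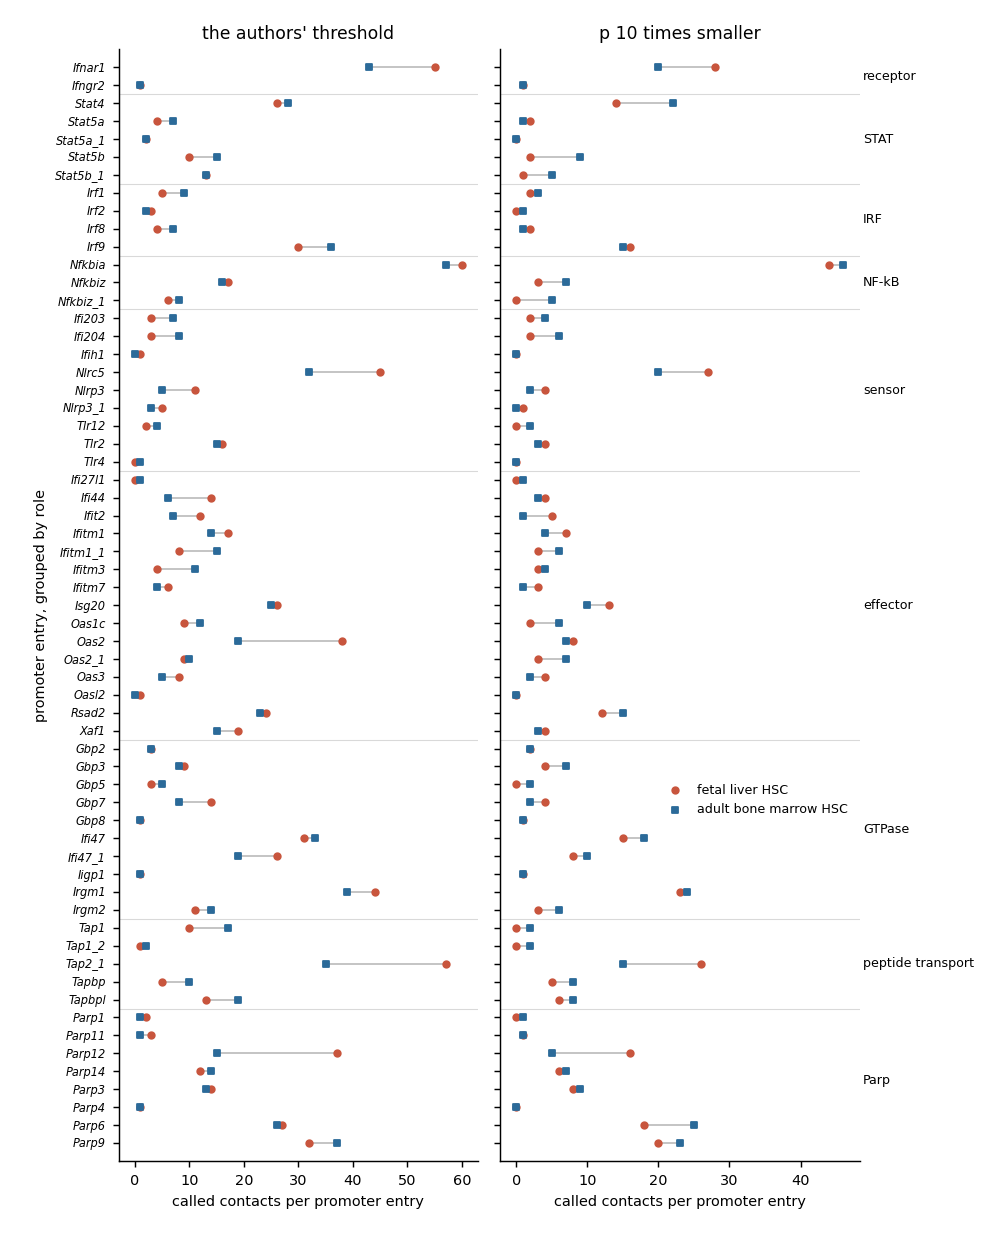
Called contacts per promoter entry (61 entries) in fetal (circle) and adult (square) cells, at the authors' threshold (left) and at a p-value 10 times smaller (right), grouped by role. Nfkbia had the most calls of any entry in either population, 60 fetal and 57 adult, and the Tap2, Oas2 and Parp12 entries had the widest gaps towards fetal cells on the left.

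Set against expression, 47 marked entries were higher in adult cells. Of these, 24 (51.1%) had a fetal excess of calls, 19 (40.4%) an adult excess and 4 equal numbers, close to the 47.2% and 40.8% of the 1374 such entries among all promoters. Calls and FPKM leaned to the same population at 9 of 18 first-batch and 11 of 28 second-batch (39.3%, 21.5 to 59.4) marked entries with unequal calls, against 49.1% and 52.5% of all such promoters. At the stricter threshold the second-batch count was 15 of 23 (65.2%, 42.7 to 83.6), against 53.7% of all. The intervals at both thresholds include 50%.

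**Figure D3:**
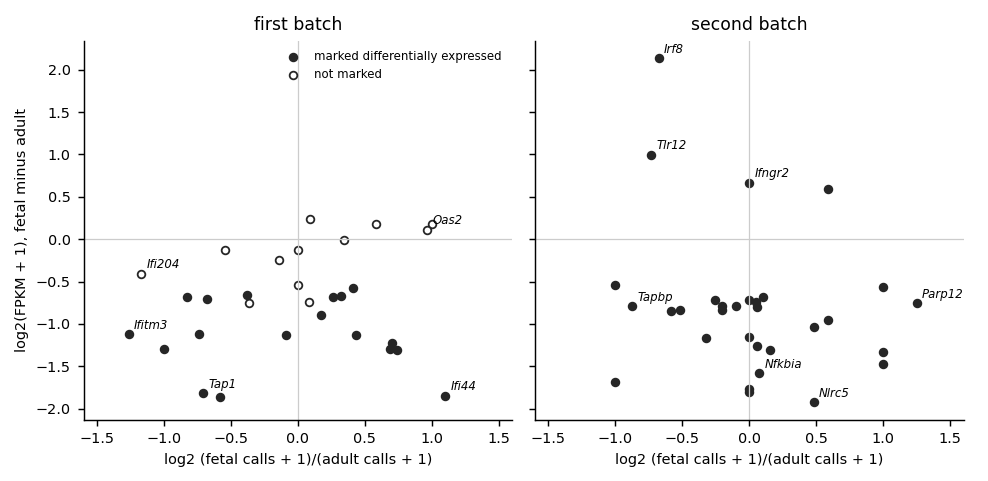
The log2 ratio of calls, (fetal + 1)/(adult + 1), on the horizontal axis against the difference in log2(FPKM + 1), fetal minus adult, on the vertical axis, with 1 point for each of 61 promoter entries. Filled points carry the differential expression mark of the authors' deposited table. Nearly all filled points lie below 0 on the vertical axis and spread to both sides of 0 on the horizontal axis.

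The widest gaps in calls among entries with at least 10 calls ran against, as well as with, expression. Towards adult cells they were Ifitm3 with 4 fetal and 11 adult calls, Ifi204 with 3 and 8, Ifi203 with 3 and 7, Tapbp with 5 and 10, and the second Ifitm1 entry with 8 and 15. Adult FPKM was higher at each of these. Towards fetal cells they included Parp12 with 37 fetal and 15 adult calls, Ifi44 with 14 and 6, Nlrp3 with 11 and 5, and the first Oas2 entry with 38 and 19. Parp12 and Ifi44 had the higher FPKM in adult cells. Several of these gaps were much smaller at the stricter threshold. Parp12 then had 16 fetal and 5 adult calls, Ifi44 4 and 3, and Nlrp3 4 and 2. The first Oas2 entry had 8 and 7. Ifitm3 had 3 fetal and 4 adult calls, Ifi204 2 and 6, and Ifi203 2 and 4. Tapbp had 5 and 8, and the second Ifitm1 entry 3 and 6. A log2 ratio of calls of at least 1 was found at 2 entries towards fetal and 3 towards adult cells in the first batch, against 10.9% and 9.84% of all captured promoters. In the second batch it was found at 5 and 2, against 11.6% and 7.87%. These counts and shares take entries with any number of calls. With at least 10 calls, the second batch had 2 such entries towards fetal and 0 towards adult cells, against 65 and 40 of all 1829. The first batch then had 2 and 3, against 91 and 59 of all 1952.

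At the receptors, Ifnar1 had 55 fetal and 43 adult calls, 28 of them shared. Its best-supported block lay at lower coordinates around an enhancer active in both populations, where the bin chr16:91366001-91368001 (mm9), 119 kb away, had 25 fetal and 43 adult counts. Ifngr2 had 1 call in each population, in different bins. Stat4 had 26 fetal and 28 adult calls, with 23 shared. The Stat5b entries had 10 and 13 fetal and 15 and 13 adult calls.

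Irf1 had 5 fetal and 9 adult calls, of which 2 and 5 met active enhancers. Most of the calls gathered 69.5 to 91.5 kb towards higher coordinates, where the bin chr11:53654001-53656001 (mm9) had 15 fetal and 21 adult counts and carried the enhancer mark in both populations. Irf9 had 30 fetal and 36 adult calls and none in a bin with the active enhancer mark of the calling population. Its calls lay nearer in adult cells, with 3 fetal and 14 adult calls within 50 kb. The counts of its listed bins in that range differed little, at 897 fetal and 877 adult. A longer fetal median was also found at 82.8% of the second-batch promoters so compared. Irf8, the gene that was higher in fetal cells, had 4 fetal and 7 adult calls, of which 1 was shared. At the stricter threshold this turned to 2 fetal and 1 adult calls. The counts of its listed bins summed to 257 fetal and 227 adult. The block 52.8 to 58.8 kb towards higher coordinates alternated between the populations. The bin chr8:123312001-123314001 (mm9) had 43 fetal and 11 adult counts, and the enhancer bin chr8:123316001-123318001 had 32 and 16, both called in fetal cells alone, while the bins at 54.8 and 58.8 kb were called in adult cells alone.

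Nfkbia had 60 fetal and 57 adult calls, with 49 shared. All 68 of its listed bins lay on one side, at lower coordinates, up to 293 kb away. The strongest bin, chr12:56498001-56500001 (mm9), 94.7 kb from the promoter, had 208 fetal and 170 adult counts and open chromatin in both populations. A second peak at 103 kb, with 150 fetal and 115 adult counts, carried the active enhancer mark in both. The profile was thus nearly the same in the populations, whereas FPKM was 3.55 times as high in the adult.

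Nlrc5, with the largest adult excess in expression, had 45 fetal and 32 adult calls, 21 of them shared. A broad block at lower coordinates reached 182 kb from the promoter, and its bin 128 kb away had 50 fetal and 34 adult counts. Active enhancers took 2 fetal and 3 adult calls.

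Rsad2 had 24 fetal and 23 adult calls, 12 shared, and 34 of its 35 bins lay at lower coordinates. Adult calls gathered nearer the promoter. Within 50 kb there were 5 fetal and 9 adult calls, and between 100 and 200 kb there were 6 fetal and 4 adult calls. The counts of its listed bins within 50 kb went the other way, at 643 fetal and 582 adult. The highest-scoring bin, 40.3 kb away at chr12:27100001-27102001 (mm9), had 98 fetal and 91 adult counts, with scores of 11.6 and 25.1. Active enhancer bins took 3 fetal and 8 adult calls.

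**Figure D4:**
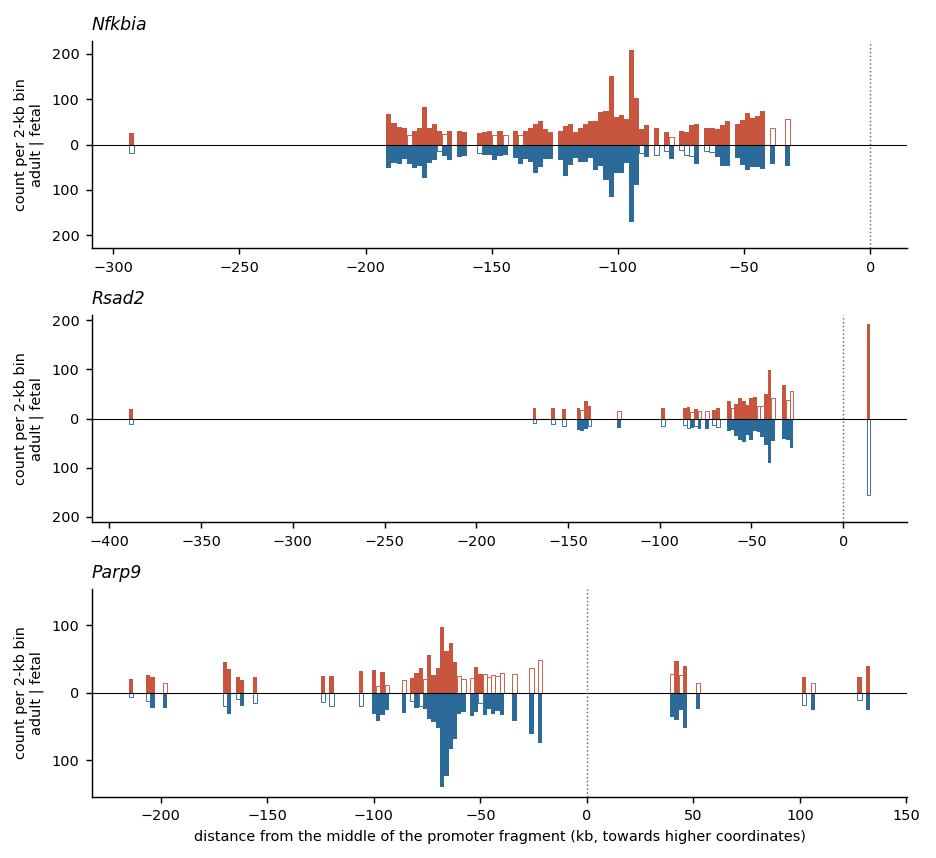
Counts per listed 2-kb bin against distance from the promoter fragment, fetal upward and adult downward, for Nfkbia, Rsad2 and Parp9 within 400 kb. Filled bars were called in that population and open bars were not. Nfkbia shows the same peaks at 94.7 and 103 kb in both populations, and Parp9 shows its tallest bars, 97 fetal and 140 adult counts, at the bin that holds the Parp14 promoter.

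Some calls lay in bins that carry the active enhancer mark of the calling population. Their first-batch shares were 14.6% for fetal and 14.5% for adult calls, where all captured promoters had 12.7% and 13.1%. In the second batch 36 of 427 fetal calls met such bins, or 8.43% (5.97 to 11.5). Of 404 adult calls, 56 did, or 13.9% (10.6 to 17.6). All captured promoters of that batch had 12.9% and 13.7%, and the interval of the immune genes' fetal share did not reach the 12.9%. At a p-value 10 times smaller the fetal share was 22 of 231, or 9.52% (6.07 to 14.1), and that interval included the 13.7% of all promoters at the same threshold. Adult enhancer calls outnumbered fetal ones at 11 of the 33 entries, fetal ones at 5, and 17 had equal numbers. The 3 entries with the largest excess, Nfkbia, Rsad2 and Parp6, held 14 fetal and 28 adult enhancer calls, and the other 30 entries held 22 and 28, or 6.96% and 9.4% of their calls.

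The marks themselves differed between the populations at some of these bins. Of the 600 second-batch contacts, 30 met a bin with the active enhancer mark in adult cells only, or 5.00%, against 3.53% of all contacts of that batch, which lay within the exact interval of the 5.00%. A bin with the mark in fetal cells only was met by 14, or 2.33% (1.28 to 3.88), against 4.05% of all. The first batch, which held other genes, ran the other way. Among its 714 contacts, 24 met adult-only (3.36%) and 31 fetal-only (4.34%) bins, close to the 3.23% and 4.24% of all contacts. Among the 30, 16 were called in both populations (53.3%, 34.3 to 71.7), 9 in adult cells alone and 5 in fetal cells alone, and 40.3% of all such second-batch contacts were called in both. Among the 24 of the first batch, 2 were called in both populations (8.33%, 1.03 to 27.0), 11 in adult cells alone and 11 in fetal cells alone, where 28.7% of all such contacts were called in both. At Nfkbia, 4 contacts shared by the populations met bins marked in adult cells only, and the same held for 4 at Rsad2 and 4 at Parp6.

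**Figure D5:**
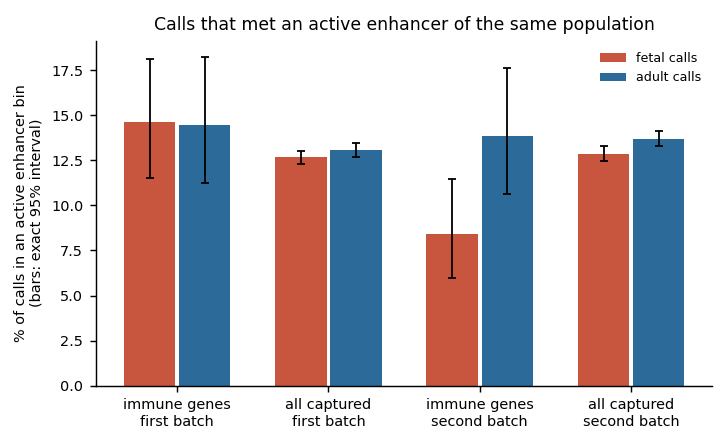
Percent of fetal and adult calls that met a bin with the active enhancer mark of the same population, for the 63 immune-gene entries and for all captured promoters, with exact 95% intervals that cover counting error only. The fetal bar of the immune genes in the second batch, at 8.43%, is the lowest of the 8.

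Several families lie side by side in the genome, and their promoters met each other. There were 28 contacts whose distal bin held the captured promoter of another gene of the group, in 13 gene pairs, at 9.20 to 216 kb. Fetal cells had 21 of these and adult cells 23, with 16 in both. Among pairs of the group's promoters 20 to 300 kb apart, 16 of 28 (57.1%, 37.2 to 75.5) had a contact in either population in the first batch and 7 of 20 (35.0%, 15.4 to 59.2) in the second, against 37.1% and 44.2% of all such pairs of captured promoters. The group's pairs lay closer together, at medians of 61.8 and 65.3 kb against 146 and 145 kb. Among pairs up to 100 kb apart, 12 of 19 first-batch pairs (63.2%, 38.4 to 83.7) and 4 of 13 second-batch pairs (30.8%, 9.09 to 61.4) had a contact, against 40.8% and 63.4% of all captured pairs in that range. Captures from both ends of a pair can read the same ligation products and are not independent, and neither are entries of one gene.

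Parp9 and Parp14 gave the strongest of these contacts. From the Parp14 fragment the Parp9 bin, 67.4 kb away at chr16:35938001-35940001 (mm9), had 106 fetal and 164 adult counts, with scores of 23.6 and 81.1. From the Parp9 fragment the Parp14 bin had 97 fetal and 140 adult counts, with scores of 30.9 and 57.2. Both captures gave more adult than fetal counts, and FPKM was higher in adult cells at both genes.

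Gbp3 met the Gbp5 promoter with 44 fetal and 54 adult counts in the stronger of 2 bins, and Gbp2 met it with 19 and 25. From Gbp7, captured in the first batch, the Gbp5 bin had 28 fetal and 12 adult counts. The Gbp3 bin had 25 and 14 from Gbp7, and both bins were called in fetal cells alone. Gbp7 met Gbp2 in 2 bins called in both populations, with 10 fetal and 11 adult counts, and 15 and 14. In the second batch, adult counts were the higher at all 8 contacts between the group's promoters, against 38.3% of contacts with any captured promoter. These 8 came from 5 gene pairs. The 8 lay at a median of 67.7 kb and the contacts with any captured promoter at 112 kb. Up to 100 kb, adult counts were the higher at all 5 of the group's contacts (47.8 to 100%), against 38.5%. These 5 came from Gbp3 with Gbp5 in 2 bins, Parp9 with Parp14 from both ends, and Oas3 with Oas1c. The last had 45 fetal and 46 adult counts. The interval takes the 5 as independent, which they are not. In the first batch adult counts were the higher at 9 of 20, against 44.6%, and up to 100 kb at 6 of 15, against 41.8%.

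Irgm1 and Ifi47, both GTPase genes, met over 204 to 216 kb in each direction and in both populations. From Irgm1, 1 bin of the first Ifi47 entry had 36 fetal and 50 adult counts. Another bin of that entry, called in fetal cells alone, had 17 and 9. From the first Ifi47 entry the Irgm1 bin had 37 and 51. With the second Ifi47 entry the counts were nearly equal, at 40 fetal and 38 adult from Irgm1 and 38 and 39 in the reverse capture. Ifitm1 and Ifitm3 were called in adult cells alone in every capture, at 43.2 to 43.9 kb. From Ifitm3 the counts were 13 fetal and 27 adult, but from the second Ifitm1 entry they were 34 and 30. The scores of these calls, 1.34 to 1.97, lay close to the threshold and none passed the stricter one. Ifnar1 met the Ifngr2 promoter at 61.3 kb with 31 fetal and 30 adult counts, while the capture from Ifngr2 did not call the reverse contact.

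Members also met the same distal bins. Of 1181 bins contacted by the group, 70 were met by more than 1 of its genes. Among captured genes of any kind, 12980 of 68572 contacted bins were met by more than 1 gene. Shared bins were thus found outside the group too. The group holds far fewer genes, so its share cannot be set directly against that one. The 70 bins included 19 met by Tap1 and Tap2, 14 by Ifi47 and Irgm1, 9 by Parp9 and Parp14, and 6 by Stat5a and Stat5b. In fetal cells 10 of the 70 bins (14.3%) were active enhancers and 24 (34.3%, 23.3 to 46.6) active promoters, and in adult cells 9 (12.9%) and 21 (19.6 to 42.1%). Of the 12980 bins met by more than 1 captured gene of any kind, 14.5% and 26.3% carried these marks in fetal cells and 13.6% and 27.3% in adult cells. The Tap1 and Tap2 promoters lie close together in the MHC region.

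Some contacts had counts of at least 1000 in a population. They were found at genes of multigene families and between chromosomes. At Irgm2, the bin 15.5 kb away had 26416 fetal and 23720 adult counts. At Oas3, the bin 60.9 kb away had 14960 and 14706. The Ifi204, Oas1c, Ifi47 and Ifi203 entries had such a bin with 7014 and 3793, 4639 and 1193, 3614 and 1237, and 1584 and 567 counts, each fetal and adult. Between chromosomes, Irf9 met a bin on chromosome 3 with 4641 and 4487 counts, and the second Ifitm1 entry met one on chromosome 8 with 6374 and 2431. How reads that match several copies were assigned is not given in the sources used here, and its part in these counts was not tested. They were 5 of the 714 listed contacts in the first batch (0.700%, 0.228 to 1.63) and 3 of the 600 in the second (0.500%, 0.103 to 1.45), against 0.190% and 0.177% of all listed contacts.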

How the data were processed

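Promoter Capture-C libraries of fetal and adult HSCs (4 each) were analysed from 1 deposited table. Per the submitters' processing notes, reads were trimmed with Trim Galore 0.41 and aligned with Bowtie2 2.2.2, with mm9 as the build. The authors deposited, pooled per population and batch, a score and a whole-number count per contact, FPKM per promoter, other 0 or 1 marks per distal bin and a mark of differential expression. How a count combines the libraries, how the marks and FPKM were made, and library depth are not given in the sources used here. The median fetal and adult counts behind a call were 13 and 14 (first batch) and 30 and 32 (second batch).

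Members, role lists and comparisons were chosen with earlier results of these data known. Batches were kept apart because their score thresholds differ, and they hold different genes. Columns that belonged to neither population numbered 0. No test was run. Members were named by a rule: per role, the entries with the most calls (at least 10 in total), the 5 largest differences in calls and in log2(FPKM + 1) each way, and STAT, IRF, receptor and NF-κB genes. The values of 2 entries are not reported here, although totals include them. Contacts between genes were matched where a bin overlapped a captured fragment. The summaries were tested on simulated data. Python 3.11.15, pandas 2.3.3, numpy 2.4.6, scipy 1.17.1 and matplotlib 3.10.9 were used. The alternatives were a stricter score, distance limits, merged bins, 1 promoter per gene, leaving out Parp genes, a pseudocount of 0.1 and a minimum of 1 FPKM. Leaving out promoters with a contact of at least 1000 counts and limiting promoter pairs to 100 kb were added after seeing the data.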

Additional observations from a re-analysis of the deposited data

How the results depend on the processing

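Of 84 values recomputed under an alternative, 68 stayed within the main value's interval (or, for counts, within 1.5 times), 15 moved outside it and 1 reversed; causes were not tested. At a p-value 10 times smaller, the fetal share of single-population calls reversed to 46.6% in the first batch (54.7% before) and moved to 46.0% in the second. At the same threshold the share of entries with more fetal calls in the second batch moved to 30.4%, the shared part of first-batch fetal calls to 42.2%, the share of first-batch entries with the longer fetal median to 91.7%, the second-batch share leaning as FPKM did to 65.2%, and contacts between member genes to 17. Merging called bins up to 5 kb apart moved the fetal share of single-population calls in the second batch to 65.9%. Counting bins within 5 kb as shared raised the shared part of fetal and adult calls to 61.2% and 67.5% (first batch) and 76.3% and 82.9% (second batch), and within 20 kb to 78.3% and 84.3%, and 86.9% and 94.8%, by construction. With a pseudocount of 0.1, 33 entries in place of 23 differed by at least 1 in expression. Leaving out single libraries was not possible because values are pooled. No paired analysis was possible because each contact and promoter has 1 value per population, and so no replicate numbers. Low counts limit single contacts, which at the median rest on 13 to 32 counts.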
